A study of Homo sapiens with 4 samples.

Results

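The genes described are 9 components of the type 1 helper T cell (Th1) and interferon gamma pathway: the transcription factors TBX21 and EOMES, the cytokine IFNG, both chains of the interferon gamma receptor (IFNGR1 and IFNGR2), both chains of the interleukin-12 receptor (IL12RB1 and IL12RB2) and both chains of the interleukin-18 receptor (IL18R1 and IL18RAP). They were chosen by name, as every probe set that the array annotation assigns to 1 of these genes alone. This gave 13 probe sets of 9 genes among 54675 probe sets in all, with 3 probe sets each for IFNGR1 and IL12RB1 and 1 for each of the other genes. Expression was measured on 4 arrays in MyLa cells, a mycosis fungoides line, and HH cells, a cutaneous T cell lymphoma line. The groups were MyLa given IL-32γ, 1 form of the cytokine interleukin-32, at 5 ng/ml, MyLa without it (control), HH given IL-32γ at 5 ng/ml, and HH without it (control), each kept for 40 hours in 0.1% serum and each represented by 1 array. Both lines are long-term cultures of malignant T cells, so each stands for 1 tumour only. The title of the series places IL-32 in mycosis fungoides against helper T cell polarisation, and the Th1 genes are taken up here as the branch that the title does not name.

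As background, interferon gamma is the signature cytokine of Th1 cells. It binds a receptor of IFNGR1, the ligand-binding chain, and IFNGR2, the signalling partner, and the kinases JAK1 and JAK2 then pass on the signal, which switches on target genes such as IRF1, CXCL10 and the guanylate-binding proteins. Interleukin-12, through STAT4, and interleukin-18, through MYD88, drive T cells to make interferon gamma under the control of T-bet (encoded by TBX21) and eomesodermin (EOMES). Early mycosis fungoides lesions are known for a Th1-like infiltrate that gives way to Th2 features in advanced disease.

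The values are log2 levels, and the floor of measurement was set at a level of 5, because most probe sets read as background: 52.0% of all probe sets lay below 5 on every array. Between 23433 and 23686 probe sets per array read 5 or more. Across all probe sets the 2 MyLa arrays correlated at r = 0.994, the 2 HH arrays at r = 0.997 and the control arrays of the lines at r = 0.908, over probe sets that are not independent. Control probe sets at both ends of a transcript were read for RNA quality. The one at the 5' end of ACTB was higher on the IL-32γ arrays by 1.69 in MyLa and by 0.89 in HH. At the 3' end of ACTB the differences were -0.08 and -0.03. For GAPDH they were 0.68 and 0.15 at the 5' end, and 0.04 and 0.03 at the 3' end. The 5' ACTB levels were 11.81 and 10.12 on the IL-32γ and control arrays of MyLa, below the 13.58 and 12.69 of HH. The part of this imbalance between the ends in the results below was not tested. T cell identity differed between the lines. Of 7 T cell markers with a probe set, MyLa had 3 at 5 or more (CD2, CD3D and CD3G) and HH had 6, with CD3E, CD4 and CD5 read in HH alone. CD8A read 11.08 and 11.05 on the IL-32γ and control arrays of MyLa, against 2.13 on both HH arrays. CD8B, the other CD8 T cell marker listed, read 2.13 on every array of both lines. The B cell, NK cell, monocyte and keratinocyte markers lay below 5 on every array. Of the fibroblast markers COL1A1 read 10.82 and 11.30 in MyLa with and without IL-32γ, against 5.66 and 4.78 in HH, while COL1A2 and DCN were at 2.13 on all arrays.

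Of the 13 probe sets, 8 read 5 or more on at least 1 array and 5 did so on all 4, so 6 of the 9 genes had a measured probe set. The genes without one were TBX21, IFNG and IL18RAP. The receptor chains IFNGR1, IFNGR2 and IL12RB1 were measured in both lines, EOMES and IL18R1 in MyLa alone, and IL12RB2 in HH alone.

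**Figure D1:**
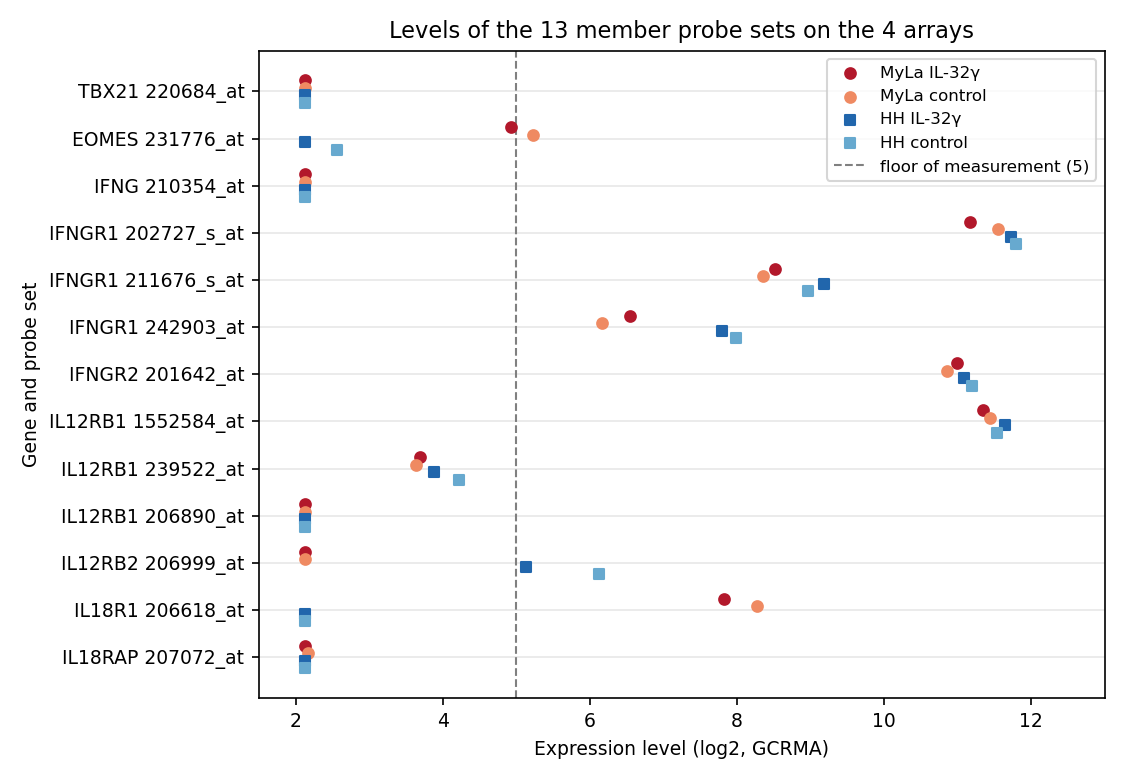
Log2 expression level (x axis) of each of the 13 probe sets (y axis) on the 4 arrays, MyLa as circles and HH as squares, with the floor of 5 as a dashed line. The probe sets of TBX21, IFNG and IL18RAP lie at or next to the array minimum of 2.13 on all 4 arrays, while IL18R1 lies above the floor on the MyLa arrays alone and IL12RB2 on the HH arrays alone.

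Interferon gamma itself was not detected in either line. The probe set of IFNG, which encodes the cytokine, read 2.13 on all 4 arrays, the lowest value that the arrays gave. TBX21, whose product T-bet is the master transcription factor of Th1 cells, read 2.13 on all 4 arrays as well. A reading at the minimum sets an upper limit by this probe set and array and does not show that the transcript is absent. EOMES, a T-box factor related to T-bet that serves in CD8 T cells and NK cells, stood at the edge of measurement in MyLa, with 4.92 on the IL-32γ array and 5.23 on the control array, against 2.13 and 2.56 in HH. Both MyLa values lay above both HH values, but only 1 of the 4 arrays reached 5, so EOMES was not tested between the lines.

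The stretch upstream of IFNG is shown because it is the only one of the 14 promoter windows of the 9 genes that holds a match to the STAT site, a DNA element bound by STAT factors such as STAT4. It covers the 250 bases before the annotated start, chr12:68159741-68159990 on the minus strand of GRCh38.p14 (sequence from RefSeq), with the match in capitals, and its first base lies 242 bases before the start.

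IFNG upstream: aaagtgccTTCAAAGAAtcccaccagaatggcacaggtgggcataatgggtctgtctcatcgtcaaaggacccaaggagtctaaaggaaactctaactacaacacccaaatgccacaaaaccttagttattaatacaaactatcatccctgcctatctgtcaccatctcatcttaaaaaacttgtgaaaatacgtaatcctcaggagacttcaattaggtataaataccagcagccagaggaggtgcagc

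The site was searched as TTCNNNGAA, which reads the same on both strands, and was found in 6.57% of 35116 windows of this length across all genes. The motif of T-box factors, searched as GGTGTGA and on the other strand as TCACACC, was found in 2.76% of windows. Of the 9 genes it was found in a window of IFNGR1, at 95 bases, and of IL18R1, at 29 bases, each before a second annotated start that lies inside the gene. The matches of the 2 motifs fell in different windows and so did not overlap. They describe letters and not sites in use.

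The receptor of interferon gamma was expressed in both lines. IFNGR2 read 10.99 with IL-32γ and 10.85 without it in MyLa, against 11.09 and 11.19 in HH. These arrays lie within 0.33 of each other. The brightest probe set of IFNGR1 (202727_s_at) read 11.17 and 11.55 on the IL-32γ and control arrays of MyLa, against 11.73 and 11.80 in HH. A second one (211676_s_at) read 8.51 and 8.36 in MyLa, against 9.18 and 8.97 in HH. The third (242903_at) read 6.55 and 6.16 in MyLa, against 7.80 and 7.99 in HH. The levels of the 3 probe sets depend on the probes and cannot be set against each other.

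IL-32γ was not seen to move the interferon gamma receptor by 1.5-fold in either line. In MyLa, IL-32γ minus control was 0.13 for IFNGR2 and -0.38, 0.15 and 0.39 for the 3 probe sets of IFNGR1. In HH it was -0.10 for IFNGR2 and -0.07, 0.22 and -0.19 for the same probe sets. The 3 probe sets of IFNGR1 thus differed in direction within each line. With 1 array per condition these are values without a test.

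IL12RB1, the chain shared by the receptors of interleukin-12 and interleukin-23, was read by 3 probe sets that did not give the same picture. Probe set 1552584_at read 11.34 with IL-32γ and 11.44 without it in MyLa, against 11.64 and 11.54 in HH. Probe set 206890_at read 2.13 on all 4 arrays, and 239522_at stayed below the floor, with 3.69 and 3.63 in MyLa against 3.88 and 4.22 in HH. The annotation assigns the first and the second to different RefSeq transcripts of the gene, both of them among its current ones. The level of IL12RB1 therefore rests on 1 probe set of 3, whose IL-32γ minus control value was -0.10 in MyLa and 0.09 in HH.

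IL12RB2, the signalling chain of the interleukin-12 receptor whose expression is a textbook mark of Th1 commitment, was read in HH at a low level. It stood at 2.13 on both MyLa arrays, and in HH at 5.13 with IL-32γ and 6.13 without it. The difference in HH was -0.998 on the log2 scale, a 2.00-fold lower value with IL-32γ, which comes close to the floor of 5. This was the 1 probe set among the 13 that differed by 1.5-fold or more with IL-32γ. It made 1 of the 6 measured in HH, where 4.02% of 23855 probe sets were lower by that much and 5.45% higher. Among the 1868 probe sets whose HH control level lay within 0.5 of that of IL12RB2, 14.1% were lower by 1.5-fold or more and 3.21% were as low as IL12RB2 or lower. With a floor of 6 the difference shrank to -0.13. The 250 bases before the first annotated start of IL12RB2, chr1:67307114-67307363 on the plus strand of GRCh38.p14 (sequence from RefSeq), are shown for the gene with this difference and hold neither motif.

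IL12RB2 upstream: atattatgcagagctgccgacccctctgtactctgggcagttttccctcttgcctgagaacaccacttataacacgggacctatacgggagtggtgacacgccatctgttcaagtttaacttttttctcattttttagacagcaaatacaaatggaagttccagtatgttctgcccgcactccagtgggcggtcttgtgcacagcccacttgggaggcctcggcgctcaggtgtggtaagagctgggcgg

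The interleukin-18 receptor showed its binding chain in MyLa alone. IL18R1, which binds interleukin-18, read 7.82 with IL-32γ and 8.27 without it in MyLa, against 2.13 on both HH arrays. IL18RAP, the accessory chain needed for signalling, read 2.13 and 2.17 on the IL-32γ and control arrays of MyLa and 2.13 on both HH arrays. MyLa thus had the binding chain above the floor and the accessory chain at the minimum. IL-32γ minus control was -0.45 for IL18R1 in MyLa, short of 1.5-fold. In RNA of a whole culture, fewer cells with a transcript and less RNA of it per cell cannot be told apart. The 250 bases before the first annotated start of IL18R1, chr2:102355546-102355795 on the plus strand of GRCh38.p14 (sequence from RefSeq), are shown for the gene with the clearest difference between the lines, and in this window neither motif was found.

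IL18R1 upstream: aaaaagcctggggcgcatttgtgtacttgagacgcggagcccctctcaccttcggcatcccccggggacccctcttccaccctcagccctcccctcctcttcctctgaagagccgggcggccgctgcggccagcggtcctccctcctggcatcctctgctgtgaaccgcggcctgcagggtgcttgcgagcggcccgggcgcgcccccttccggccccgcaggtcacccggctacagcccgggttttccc

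Among the measured probe sets of these genes, 0 of 7 in MyLa differed by 1.5-fold or more with IL-32γ, where 20.1% of all 24232 measured probe sets did, 11.0% higher and 9.13% lower. Their median was -0.10, beside -0.05 over all. In HH 1 of 6 did, where 9.46% of all did, with a median of -0.08 beside -0.02. EOMES in MyLa has a bound of -0.23, since its IL-32γ value lay below 5. With the lines as replicates of the treatment, limma with the line as a block called 0 of 7 tested probe sets and 0 of 25306 in all (0.0%), at an unadjusted p under 0.05 also 0 of 7 and 2571 in all (10.2%). The fit has 1 residual degree of freedom. Its largest difference among these genes was that of IL12RB2, -0.50 ± 0.30 (SE, 2 lines, limma adjusted p = 0.602), and MyLa adds 0 to it because both its arrays lie below the floor. IL18R1 followed with -0.23 ± 0.18 (limma adjusted p = 0.632), and the brightest IFNGR1 probe set with -0.23 ± 0.15 (limma adjusted p = 0.608).

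**Figure D2:**
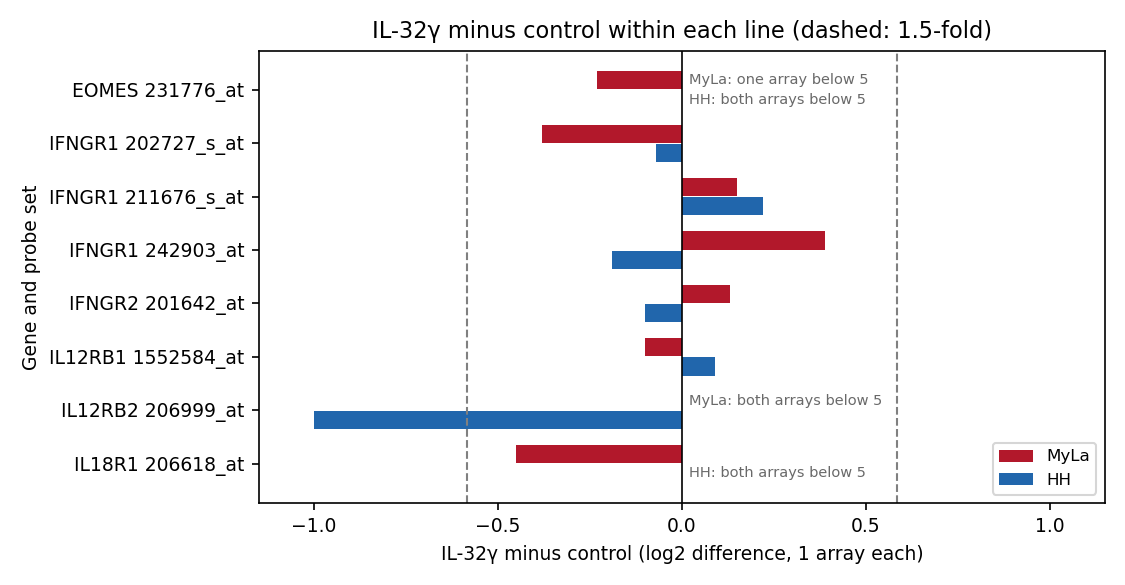
IL-32γ minus control (x axis, log2 difference between 1 array each, values below 5 raised to 5) for the 8 measured probe sets in MyLa and in HH, with dashed lines at 1.5-fold. IL12RB2 in HH, at -0.998, is the only bar past a dashed line, and where an array lies below 5 the plot says so.

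Between the lines, IL18R1 was higher in MyLa and IFNGR1 was lower by 1 of its 3 probe sets. Here the IL-32γ and control arrays of a line stand in for replicates, so the spread includes the IL-32γ response, and the labels do not describe repeat cultures. Of 7 tested probe sets, 1 was higher and 1 lower in MyLa at a limma adjusted p under 0.05 and 2-fold or more. Among all 25306 the shares were 18.2% higher and 16.8% lower (35.0% together), so the count among these genes is near what the array shows throughout. The median of the 7 was -0.40, beside -0.01 over all.

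IL18R1 was at least 8.25-fold higher in MyLa than in HH, whose arrays count as 5 (log2 difference 3.04 ± 0.20, SE, n = 2 arrays each, limma adjusted p = 0.00158). Without the HH IL-32γ array the adjusted p was 0.0707, and without the HH control array 0.0684, at the same difference. IFNGR1 by probe set 242903_at was 2.91-fold lower in MyLa (-1.54 ± 0.19, limma adjusted p = 0.00716). Without the MyLa control array its adjusted p was 0.0504, without the HH IL-32γ array 0.103, without the HH control array 0.113, and with neither floor nor filter, over 54675 probe sets, 0.0659. Probe set 211676_s_at of IFNGR1 was at -0.64 ± 0.14 (limma adjusted p = 0.030), under 2-fold, and 202727_s_at at -0.40 ± 0.18 (limma adjusted p = 0.136). The size of the IFNGR1 difference thus depended on the probe set, from 1.32-fold to 2.91-fold.

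The other chains gave no call. IFNGR2 was at -0.22 ± 0.12 (limma adjusted p = 0.203) and IL12RB1 at -0.20 ± 0.11 (limma adjusted p = 0.225). IL12RB2 was at -0.63 ± 0.38 (limma adjusted p = 0.242), a bound because MyLa counts as 5, and its wide error holds the gap between the HH arrays. With a floor of 4 IL12RB2 was lower in MyLa by at least 3.10-fold (limma adjusted p = 0.0366), and EOMES, which then enters the fit, was higher by at least 1.07 on the log2 scale (limma adjusted p = 0.0114). Without the HH IL-32γ array IL12RB2 stood at -1.13 (limma adjusted p = 0.0449). The 5' ACTB control was lower in MyLa as well, as given above.

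**Figure D3:**
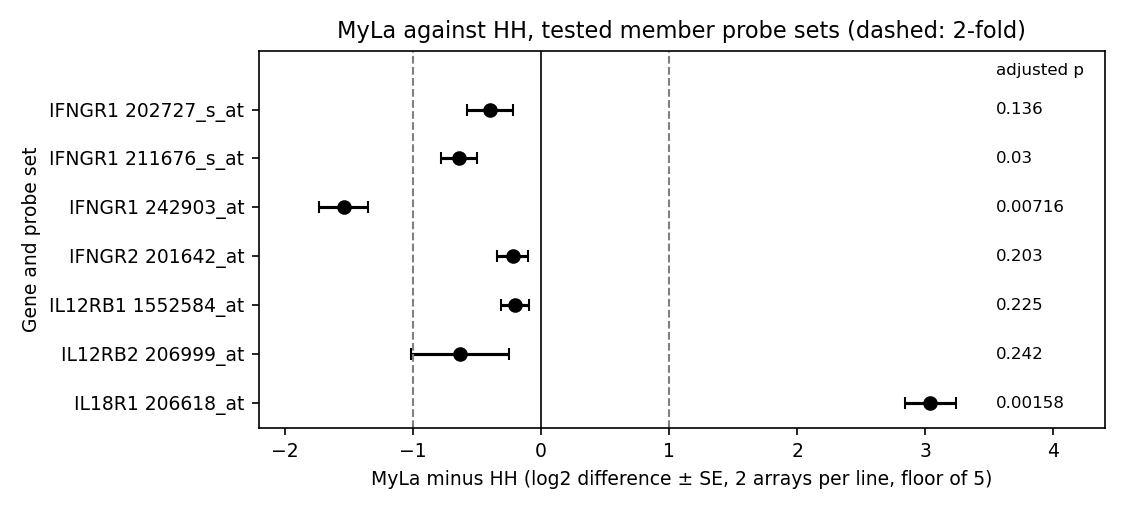
MyLa minus HH (x axis, log2 difference with its standard error from limma, 2 arrays per line, values below 5 raised to 5) for the 7 tested probe sets, with the adjusted p at the right and dashed lines at 2-fold. IL18R1 lies at 3.04 and IFNGR1 242903_at at -1.54, and the other 5 lie between the dashed lines.

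Patterns were compared for genes whose brightest probe set differed by 2-fold or more between line means, which IL18R1 alone of the 9 genes met. By the Euclidean distance of mean-centred log2 values over the 4 arrays, the genes nearest to it among 11010 were FNBP1L (distance 0.06) and ITM2C (distance 0.08). FNBP1L read 7.88 with IL-32γ and 8.32 without it in MyLa, against 2.26 and 2.36 in HH. With 4 arrays and a floor, such closeness describes a level in MyLa alone.

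The rest of the pathway was read from a list of 43 further genes, of which 40 had a probe set that could be used. The other 3 were not analysed here. Each gene is given by its brightest probe set, and 31 of the 40 were tested between the lines, of which 16 were higher and 6 lower in MyLa, against 18.6% higher and 16.6% lower of 11010 genes. Without either HH array 11 were called higher and 3 lower, and the calls of EBI3, HLX, IRAK1 and IL18BP below were among those lost. Among the cytokines that act upstream, IL12B, IL18 and IL27 were at 2.13 on every array. IL12A, a subunit of interleukin-12, was read in HH alone, at 5.72 with IL-32γ and 5.97 without it. EBI3, a subunit of interleukin-27 and interleukin-35, was higher in MyLa (3.52 ± 0.19, limma adjusted p = 0.00106). IL15, a growth factor of memory T cells and NK cells, was at least 98.0-fold higher there, with 11.61 and 11.62 on the IL-32γ and control arrays of MyLa, against 2.53 and 3.25 in HH.

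Of the kinases and STAT factors that carry these signals, TYK2, the kinase of IL12RB1, was higher in MyLa (2.06 ± 0.15, limma adjusted p = 0.00216). JAK2, the kinase of IFNGR2 and IL12RB2, was lower (-1.44 ± 0.38, limma adjusted p = 0.0446), a call lost without the MyLa IL-32γ array, without either HH array, and with neither floor nor filter. Its other probe sets were called lower as well, one at -1.13 (limma adjusted p = 0.0106) and one by at least 4.30-fold (limma adjusted p = 0.00157). JAK1, the kinase of IFNGR1, stood at -0.47 ± 0.11, under 2-fold. STAT4, the factor activated by interleukin-12, was measured on all arrays and stood at 0.53 ± 0.32 (limma adjusted p = 0.245). The adaptor MYD88 (-1.34) and the kinase IRAK1 (-1.25), which act below the interleukin-18 receptor, were lower in MyLa. The call of IRAK1 was also lost without the MyLa control array and with neither floor nor filter. A dimmer probe set of IRAK1 stood at -0.97 and was not called (limma adjusted p = 0.172). Among the brakes on the pathway, SOCS1 (3.31) and SOCS3 (6.34), inhibitors of JAK signalling, and TWIST1 (4.27), a repressor of Th1 genes, were higher in MyLa. IL18BP, a decoy for interleukin-18, was lower (-1.58), a call lost without any 1 of the 4 arrays and with neither floor nor filter. HLX, a partner of T-bet, was higher in MyLa (2.73), while RUNX3, another T-bet partner, stood at 0.15. The Th1 chemokine receptor genes CXCR3 and CXCR6 were below 5 on every array.

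Target genes of interferon gamma were mostly higher in MyLa, while IFNG read at the minimum in both lines. Of 15 such genes 12 were tested, and 9 were higher and 2 lower in MyLa, beside the shares over all genes given above. Their median difference was 1.36, beside 0.03 over all genes. GBP5, a guanylate-binding protein of cell-autonomous defence, read 10.33 and 10.54 on the IL-32γ and control arrays of MyLa, against 3.62 and 3.28 in HH. CXCL11, a ligand of CXCR3, read 9.64 and 9.61 in MyLa, against 4.64 and 4.79 in HH. Both were below the floor in HH. CXCL10, another ligand of CXCR3, read 12.27 and 12.25 in MyLa, against 9.85 and 9.87 in HH (2.40 ± 0.10, limma adjusted p = 0.00062). IRF1, the first transcription factor of the response, was higher by 1.14 ± 0.11 (limma adjusted p = 0.00414). A dimmer probe set of IRF1 stood at 1.36 and was not called (limma adjusted p = 0.0534). WARS1, GBP1, GBP4, TAP1 and ICAM1 were higher too. For GBP1 that holds for 1 of 3 probe sets, the others being at 0.55 and at 1.23 (limma adjusted p = 0.105), and with a floor of 6 the call was lost (0.07, limma adjusted p = 0.625). The call of ICAM1 by its brightest probe set was lost without any 1 of the 4 arrays and with neither floor nor filter, while a further one stood at 1.84 (limma adjusted p = 0.00147). The exceptions were CIITA, the activator of MHC class II genes, lower in MyLa (-1.89), and GBP2 (-1.25). With a floor of 6 the call of GBP2 was lost (-0.25, limma adjusted p = 0.281), as it was without either MyLa array. Without either HH array 6 of the 12 were called higher and 2 lower. GBP1 (6.01 and 6.12 in MyLa with and without IL-32γ) and GBP2 (6.06 and 6.45 in HH) read close to the floor.

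**Figure D4:**
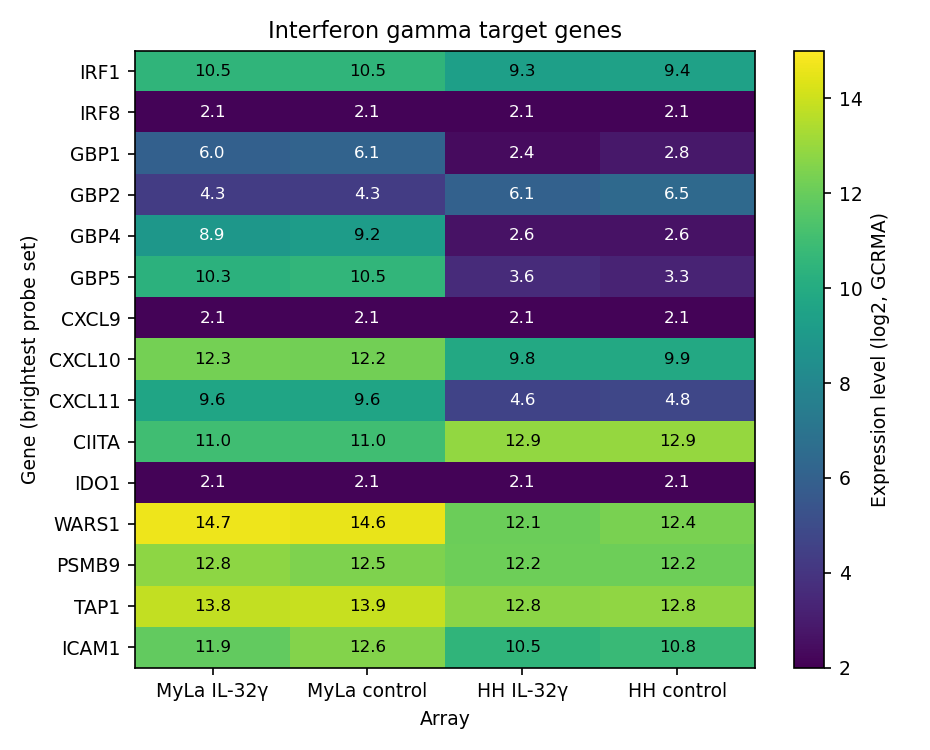
Log2 expression level (colour and printed value) of 15 interferon gamma target genes, each by its brightest probe set, on the 4 arrays (columns). GBP4, GBP5 and CXCL11 lie above 5 on the MyLa arrays alone, CIITA and GBP2 are higher on the HH arrays, and IRF8, CXCL9 and IDO1 lie at 2.1 throughout.

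With IL-32γ, 3 of 29 measured genes of this list were lower in MyLa by 1.5-fold or more and 0 higher, against 7.65% lower and 7.77% higher of 10497 genes. They were JAK2 (-0.96), STAT4 (-0.76) and ICAM1, an adhesion molecule (-0.70). A further measured probe set of JAK2 stood at 0.31, and those of ICAM1 at -0.12 and at 1.01, the last a bound. The IL-32γ response of JAK2 and ICAM1 therefore depends on the probe set, while STAT4, at 7.12 with IL-32γ and 7.88 without it in MyLa, has only 1. In HH 0 of 24 passed 1.5-fold, against 4.46% lower and 1.14% higher of 10307 genes, with STAT4 at -0.33 and IRF1 at -0.12. Dimmer probe sets of further list genes also passed 1.5-fold, against smaller values of the brightest ones. In MyLa these were lower for JAK1 (-1.31, against -0.01), GBP1 (-1.26, against -0.11) and TRAF6, a ligase below the interleukin-18 receptor (-0.90, against -0.13). They were also lower there for PTPN2, a phosphatase that brakes the pathway (-0.91 as a bound, against -0.19), and higher for IRF1 (0.62, against -0.01). In HH a dimmer probe set of IRAK1 was higher (1.14, against -0.15) and that of IRF1 lower (-0.80, against -0.12). Across the lines limma called 0 of 31 (0.0% of all genes), and 2 had an unadjusted p under 0.05, STAT4 (-0.54) and ICAM1 (-0.51), against 10.2% of all 25306 probe sets. The interferon gamma targets, with a median of -0.01 in MyLa and -0.10 in HH, held 1 of these changes, that of ICAM1 in MyLa.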

How the data were processed

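Each of the 4 arrays received biotin-labelled total RNA of 1 line under 1 condition, per the labels. The authors deposited log2 expression values per probe set made with GCRMA, per the submitters' processing notes, which corrects background by probe sequence, normalises and summarises probes. Its version is not given in the sources used here, and the log2 scale was read from the values (2.13 to 16.0). Gene names came from the platform annotation (41097 probe sets with 1 symbol, 1801 with several, 11777 not listed). Of those with 1 symbol, 41043 were matched by gene identifier to a RefSeq table of GRCh38.p14, whose symbol was then used.

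Values below 5 were raised to 5. Within a line, differences were taken for probe sets at 5 or more on at least 1 of its 2 arrays, counted at 1.5-fold. Probe sets at 5 or more on at least 2 arrays were fitted with limma 3.58.1 (R 4.3.3), for IL-32γ with the line as a block and for MyLa against HH without one, two-sided, with Benjamini-Hochberg adjustment over all 25306 at 0.05 and a 2-fold minimum between lines. The fits were tried on simulated data with independent noise to check the estimated differences, which says nothing of how these arrays vary. Arrays of cultures not stated to be separate make p-values measure only the spread between these arrays, and the number of arrays limits precision.

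The 9 genes, the 43 further pathway genes and the marker lists were chosen with earlier results of these data known. Every probe set of the 9 genes is given, and of the pathway list the genes past a threshold and those next to the 9 genes in the pathway, with further probe sets added after their values were seen. The alternatives moved the floor and its filter together (to 4, to 6, or both removed), rescaled the arrays (quantile, median-centred), dropped probe sets with shared probes, kept 1 probe set per gene, changed the fold threshold, the variance trend or the block, or dropped 1 array at a time. Promoter windows came from RefSeq and were cut to the 250 bases before the start. Python 3.11.15 with pandas 2.3.3, numpy 2.4.6 and matplotlib 3.10.9 served for tables and plots.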

Additional observations from a re-analysis of the deposited data

Results flagged for a closer look

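In 3 probe sets measured on all 4 arrays the IL-32γ array lay on opposite sides of its control in the 2 lines. IL-32γ minus control was 0.39 in MyLa and -0.19 in HH for IFNGR1 by probe set 242903_at, a gap of 0.58. It was 0.13 in MyLa and -0.10 in HH for IFNGR2, a gap of 0.23, and -0.10 in MyLa and 0.09 in HH for IL12RB1 by probe set 1552584_at, a gap of -0.19. None of these 6 differences reached 1.5-fold. With 1 array per condition the difference between the lines was not tested.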

How the results depend on the processing

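No paired analysis by replicate number was possible because each group holds 1 array, while IL-32γ was paired by line, with the line as a block. No result changed its sign where it was called. Of the IL-32γ values in MyLa, the 9 genes had 3 calls at a fold threshold below 1.5 and 0 under each other setting tried. All probe sets had 1487 calls at 2-fold and 10331 at that lower threshold, against 4871 of 24232 tested. With 1 probe set per gene the calls were 1619 of 10497 tested, and without shared-probe sets 3148 of 15114. In HH the 1 call was lost (0) with a floor of 6 and at 2-fold. All probe sets there had 486 calls at 2-fold and 6418 at the lower threshold, against 2257 of 23855 tested. With neither floor nor filter the calls were 3793 of 54675 tested, and with 1 probe set per gene 578 of 10307. Pathway genes called in MyLa were 0 at 2-fold and 8 at the lower one, and in HH 1 with neither floor nor filter and 6 at the lower threshold. Of interferon gamma targets 0 were called in MyLa at 2-fold and without shared-probe sets, and 3 in HH at the lower threshold. Across the lines every setting gave 0 calls in limma.

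For MyLa minus HH the 9 genes had 4 calls with a floor of 4 (EOMES and IL12RB2 added) and 1 with 1 probe set per gene, and between 0 and 2 when an array was left out. All probe sets had 5758 calls with neither floor nor filter (54675 tested), 3907 with 1 probe set per gene, and 3621 to 6563 when an array was left out, against 8863. Pathway genes had 14 without shared-probe sets and 14 to 19 when an array was left out, against 22, and interferon gamma targets 8 or 9, against 11. Leaving out an array leaves 1 in its line, assumed to vary like the other line. The number of arrays and readings close to the floor limit all of these, and for the loss of single calls the cause was not tested. The 1 probe set per gene setting within a line was chosen after seeing the data.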
